A study of Mus musculus with 20 samples.

Results

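The comparison set 4 arrays of whole-tissue RNA from wild type salivary gland against 3 from wild type small intestine. These were 7 of the 20 arrays of the series, and the aim was to find the genes that set the organs apart. The arrays were chosen by genotype and organ in the sample titles, with no measured value. All 7 mice were C57BL/6 females housed free of specific pathogens, and each array held the RNA of 1 mouse. The salivary gland mice were 6, 6, 7 and 7 weeks old, and the small intestine mice were 6, 8 and 6 weeks old. Neither organ was treated, and the labels do not say which salivary glands were taken. The source label of the intestinal arrays names the duodenum. A further 4 salivary gland arrays (mice 9 weeks old) and 3 small intestine arrays (mice 6, 8 and 6 weeks old) labelled Irgm1-/-, a deletion of the interferon-induced GTPase Irgm1 on the same strain, were used to see whether the organ differences recur in other mice. Each mouse gave 1 sample of an organ, and no label ties the salivary gland mice to the small intestine mice.

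Salivary glands secrete saliva from acini, whose cells are packed with secretory granules and release water through aquaporin channels. Their ducts then change the salt content of that fluid, and in rodents the granular ducts of the submandibular gland also store kallikreins, renin and growth factors. The small intestinal epithelium digests and absorbs food at the brush border of its enterocytes, is covered by mucus from goblet cells and guarded by antimicrobial Paneth cells at the crypt base. It is renewed all the time from dividing crypt cells.

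The levels below are log2 signals relative to the array's 75th percentile, so a level of 0 is the signal at that percentile and a step of 1 is a doubling. For the wild type arrays that percentile is taken over the 9170 probes well above background on all 7. All differences are salivary gland minus small intestine. Each gene is represented by 1 probe, so levels are compared between arrays and not between genes. Over all spots other than controls, the 75th percentile of the raw signal ranged from 134.3 to 350.1 on the salivary gland arrays. It ranged from 2562.7 to 3529.0 on the small intestine arrays. The share of probes well above background ranged from 25.2% to 36.0% on the salivary gland arrays and from 52.6% to 57.0% on the small intestine arrays. The organs were scanned on separate days and on separate slides, so organ, slide, scan day and brightness cannot be told apart. The number of arrays and the dimmer salivary gland signal limit the precision. In this whole-tissue RNA, fewer cells of a type and less RNA per cell cannot be told apart.

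Of 16539 genes tested, 11625 (70.3%) differed between the organs, and 4738 (28.6%) were higher in salivary gland and 6887 (41.6%) were lower at an adjusted p under 0.05 in limma. The values of the organs did not overlap for 11747 genes (71%). The median difference over all genes was -0.31. Where no array of an organ had the gene well above background, its difference is given as "at least N-fold". This bound sets the brighter organ's mean against the dimmer organ's mean. Each value of the dimmer organ below its array's lowest detectable signal is first raised to that signal. With such genes held at that bound, 1538 genes (9.3%) were at least 8-fold higher in salivary gland and 560 (3.39%) at least 8-fold lower. At 128-fold the counts were 174 genes higher and 50 lower. The lowest detectable signal lay between -5.31 and -3.77 on salivary gland arrays and between -8.17 and -8.03 on small intestine arrays. Bounds of genes lower in salivary gland are therefore capped at smaller folds. No array of the lower organ was well above background for 2734 lower and 292 higher calls. The 8-fold and 128-fold counts thus cannot be compared between the directions. For 873 of the genes called lower, the salivary gland arrays were too dim for any bound above 1-fold. A further 377 genes called higher had no salivary gland array well above background. Without these, 4361 genes (26.4%) were higher and 6014 (36.4%) were lower. The lower genes still held 1861 with no salivary gland array well above background. Over genes detected on all 7 arrays the split turned, with 3406 higher and 2612 lower.

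The secretory products of acini had the highest median difference of the 38 gene lists examined. Of 28 listed acinar genes, 22 were tested and 19 were higher in salivary gland, 17 of them at least 8-fold. The median difference of the list was 11.90, or 10.76 with genes at their bound. For all genes it was -0.31, or 0.0 with genes at their bound. Prol1, a proline-rich secreted protein of the salivary glands, had levels of 6.48, 6.57, 7.53 and 7.64 in salivary gland, against -10.27, -10.26 and -10.07 in small intestine. No small intestine array had Prol1 well above background, and salivary gland was at least 36600.0-fold higher (adjusted p = 3.37e-08). Car6, the secreted carbonic anhydrase of saliva, had levels of 6.46, 6.74, 7.30 and 7.55 in salivary gland and -10.32, -10.24 and -10.21 in small intestine, at least 35633-fold higher. Pip, the prolactin-inducible protein of exocrine secretions, had levels of 6.55, 6.83, 6.79 and 7.20 in salivary gland and -10.08, -10.10 and -9.27 in small intestine, at least 31592-fold higher. The organs did not overlap for any of these 3 genes. Prol1 and Car6 were uneven within salivary gland, with SDs of 0.61 and 0.50, beside a median SD of 0.17 over genes detected on all 7 arrays. Both rose from mouse 1 to mouse 4, while the 75th percentile of the raw signal fell (350.1, 274.1, 176.8 and 134.3). Whether array brightness or the mice gave this spread was not tested.

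Lpo, lactoperoxidase, was well above background on 2 of 3 small intestine arrays. Its levels were 4.38, 4.38, 4.39 and 4.0 in salivary gland, against -5.51, -7.79 and -8.02 in small intestine, a log2 difference of 11.39 ± 0.57 (SE). Smgc, a submandibular secreted protein, was at least 2407-fold higher in salivary gland. The mucin-like genes Mucl1 and Mucl2 were at least 35792-fold and 25454-fold higher. The 12 highest measured differences among genes with a RefSeq match, predicted genes left out, also held Dcpp2, Dcpp3 and 4 secretoglobin genes, Scgb2b27, Scgb2b26, Scgb1b30 and Scgb1b20, the last of them at least 18145-fold higher. All 12 were well above background on no small intestine array, so their order is not known. Dcpp and Scgb genes have close paralogs, and their probes may share signal. The list had exceptions: Dmbt1, a mucosal scavenger receptor, was at least 189-fold lower in salivary gland, with levels of 3.42, 3.35 and 2.24 in small intestine, and Sval1 was at least 2.65-fold lower.

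**Figure D1:**
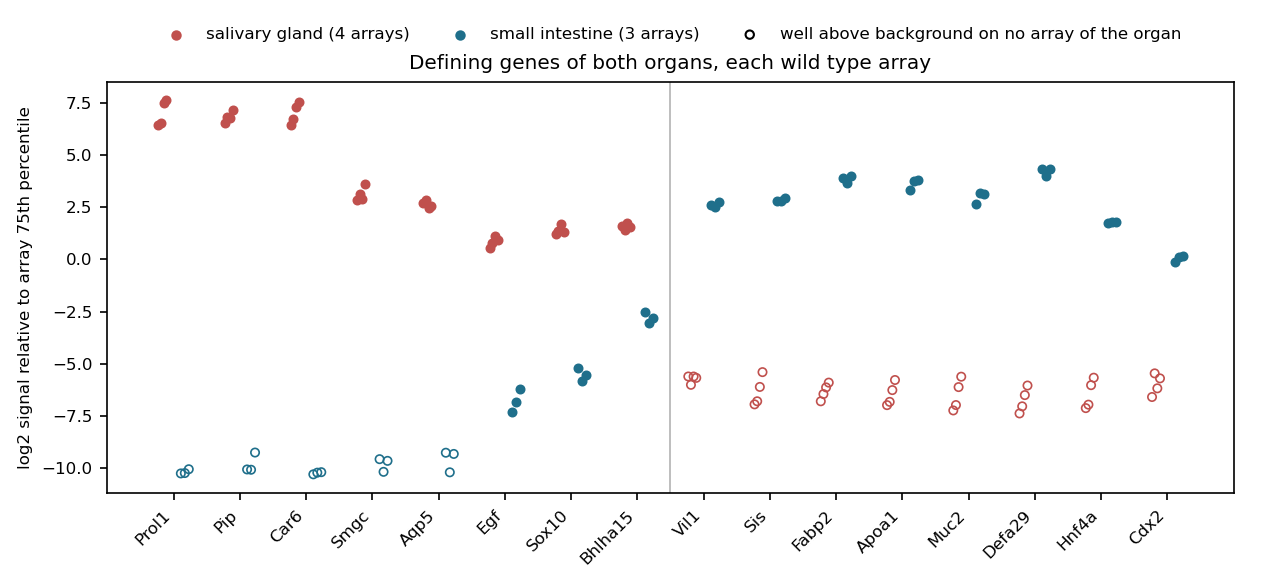
Levels of 16 genes on each wild type array (y axis: log2 signal relative to the array's 75th percentile), salivary gland in red and small intestine in blue, with open circles where no array of the organ was well above background. The left 8 genes sit higher in every salivary gland array and the right 8 higher in every small intestine array, with no overlap.

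Products of the granular ducts had fewer exceptions than those of acini. Of 19 listed kallikreins, renins and growth factors, 18 were higher in salivary gland, all of them at least 8-fold, with a list median of 6.82. Klk1b11, a kallikrein-related peptidase, had levels of 2.59, 2.66, 3.22 and 2.85 in salivary gland, against -10.09, -10.20 and -10.05 in small intestine, at least 1955-fold higher. Klk1b9, which processes epidermal growth factor, was at least 1497-fold higher, Klk1b16 at least 843-fold and Klk1b27 at least 377-fold. The Klk1b genes lie side by side on chromosome 7 and are near-copies of each other, so the signal of single members is uncertain. Egf, the growth factor itself, had levels of 0.53, 0.79, 1.13 and 0.92 in salivary gland and -7.32, -6.82 and -6.21 in small intestine, a difference of 7.63 ± 0.28 (SE). Nrg4, a neuregulin, did not pass the test, with a difference of -0.43 and no salivary gland array well above background.

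Salivary gland transcription factors were higher in 16 of 17 tested genes, though no salivary gland array had 1 of these, Runx1, well above background. The list median was 4.37. Elf5, an ETS factor of secretory epithelium, had levels of 0.49, 0.38, 0.43 and 0.28 in salivary gland, against -9.93, -10.01 and -10.02 in small intestine, at least 363-fold higher. Foxc1, a forkhead factor, was at least 91.2-fold higher. Ascl3 and Foxi1, which mark ionocyte-like duct cells, were higher by 7.88, with 1 of 3 small intestine arrays well above background, and at least 219-fold. Sox10, known from salivary acinar and myoepithelial lineages as well as from glia, had levels of 1.21, 1.38, 1.70 and 1.31 in salivary gland and -5.23, -5.81 and -5.54 in small intestine. Bhlha15 (Mist1), which builds the secretory apparatus of acinar cells, had levels of 1.59, 1.41, 1.76 and 1.57 in salivary gland and -2.54, -3.03 and -2.79 in small intestine, a difference of 4.37 ± 0.17 (SE). Sox9 did not pass the test.

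Fluid secretion was mixed as a list and clear for a few genes. Of 18 tested transport genes, 9 were higher, 4 lower and 5 did not pass, with a median of 0.46. The shares over all genes were 28.6% higher and 41.6% lower. Aqp5, the water channel of the acinar apical membrane, had levels of 2.70, 2.85, 2.45 and 2.56 in salivary gland, against -9.28, -10.22 and -9.34 in small intestine, at least 1717-fold higher. The epithelial sodium channel subunit Scnn1b was at least 45.9-fold higher, the anion exchanger Slc4a2 was higher by 5.3 and the potassium channel Kcnn4 by 4.63. Slc26a6, an apical anion exchanger, was lower, with a difference of -2.41, and Slc4a4, the sodium bicarbonate cotransporter, at least 2.99-fold lower (adjusted p = 0.0426), with small intestine levels of -4.50, -2.01 and -2.16. Basal and myoepithelial genes were higher in 5 of 7 tested, with Krt5 at 8.85 (1 of 3 small intestine arrays well above background), Trp63 at 7.67 and Krt14 at 7.65. Sfn ran the other way, with a difference of -0.82.

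Products of single glands were not uniform among the 4 salivary gland mice. The gene groups in this paragraph and the next were chosen after their values were seen. Amy1, salivary amylase and a main parotid product, had levels of 6.03 and 6.05 in mice 1 and 2 and -4.46 and -5.77 in mice 3 and 4, against -5.51, -3.12 and -3.08 in small intestine. The organs overlapped, and the difference of 4.36 ± 3.17 (SE) did not pass the test (adjusted p = 0.251). Chia1, acidic chitinase, had levels of 6.23 and 6.46 in mice 1 and 2 and -2.90 and -2.86 in mice 3 and 4. Dnase1, a secreted nuclease, had levels of 5.10, 5.04, -3.53 and -4.95 in mice 1 to 4. The proline-rich protein genes Prb1, with 5.12, 4.70, -1.96 and -1.81, and Prpmp5, with 5.86, 5.83, 0.59 and 1.14, followed the same split. Bpifa2, parotid secretory protein, was 6.76, 6.94, 1.97 and 4.95. Mice 1 and 2 were 6 weeks old and shared slide 1, and mice 3 and 4 were 7 weeks old and shared slide 2. Without mice 3 and 4, the 2 dimmest salivary gland arrays, 23 acinar genes were higher in place of 19. More list members then passed the filter than the 22 tested on all arrays. In salivary gland that filter rested on mice 1 and 2 alone, the mice with the higher parotid levels. What raised the count was not tested.

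The split ran the other way by slide in the other genotype. On the salivary gland arrays labelled Irgm1-/-, all from mice 9 weeks old, Amy1 had levels of -3.07 and -3.98 in mice 1 and 2 (slide 1) and 5.15 and 4.27 in mice 3 and 4 (slide 2). Wild type mouse 3 stood apart for sublingual products: Muc19, the gel-forming mucin of mucous acini, was 2.92, 2.69, -0.52 and 3.62 in mice 1 to 4, and Dcpp1 was 5.73, 5.85, 3.15 and 6.06. The mouse 1 array labelled Irgm1-/- had the low values there, with -2.52 for Muc19 and 1.40 for Dcpp1. Submandibular duct products varied less over the 4 wild type mice, between 0.53 and 1.13 for Egf and between 2.14 and 2.78 for Klk1b9. The part that dissection, age or slide has in these values was not tested.

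**Figure D2:**
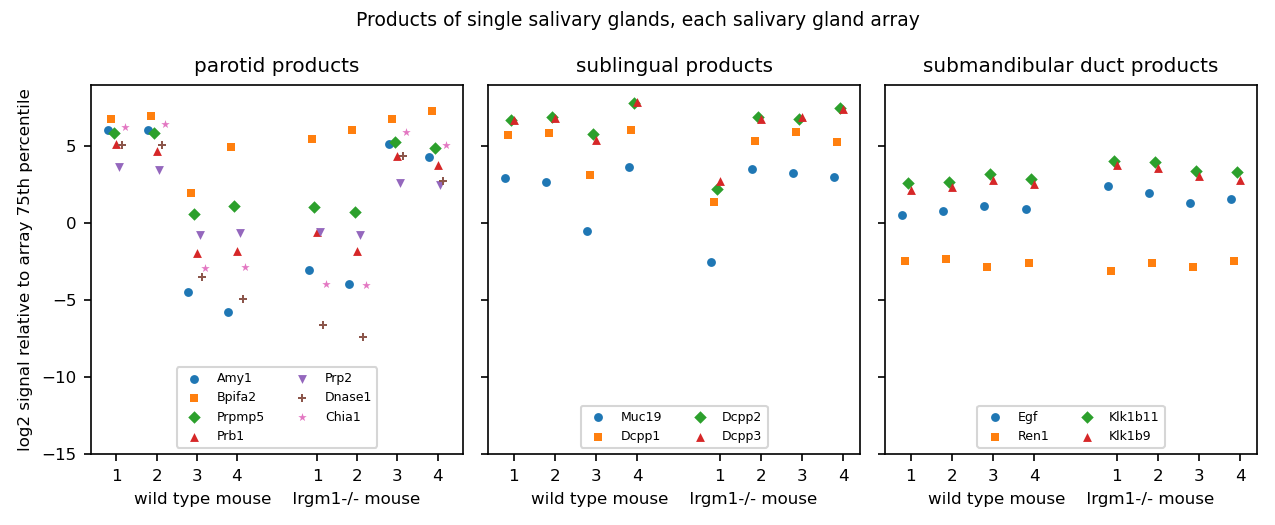
Levels of parotid, sublingual and submandibular duct products on each salivary gland array (y axis: log2 signal relative to the array's 75th percentile), with the 4 wild type mice left of the 4 mice labelled Irgm1-/- in each panel. Amy1 sits near 6 in wild type mice 1 and 2 and below -4 in mice 3 and 4, while Egf and Klk1b9 vary little over the wild type mice.

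On the intestinal side, digestion at the brush border was lower in salivary gland for 19 of 20 tested genes, with a median of -7.18, or -5.34 with genes at their bound. For 15 of the 20, no salivary gland array was well above background. Sis, sucrase-isomaltase, had levels of -6.96, -6.81, -6.12 and -5.41 in salivary gland, against 2.81, 2.83 and 2.93 in small intestine, at least 170-fold lower in salivary gland. Vil1, the villin that bundles actin in microvilli, had levels of -5.62, -6.02, -5.62 and -5.68 in salivary gland and 2.61, 2.53 and 2.75 in small intestine, at least 146-fold lower. The meprin subunits Mep1b and Mep1a were at least 182-fold and 109-fold lower, the peptidase Naaladl1 at least 114-fold and the intestinal alkaline phosphatase Alpi at least 34.3-fold. Ace, angiotensin-converting enzyme, was the member that did not pass.

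Lipid handling followed the same direction, with 23 of 24 tested genes lower in salivary gland and a median of -5.17, or -3.99 with genes at their bound. For Abcg8 and Bco1, no bound above 1-fold could be given. Fabp2, the intestinal fatty acid-binding protein, had levels of -6.81, -6.46, -6.14 and -5.91 in salivary gland, against 3.9, 3.67 and 3.99 in small intestine, at least 340-fold lower. Apoa1, the main protein of high-density lipoprotein, was at least 293-fold lower, Mogat2, which rebuilds triglycerides in enterocytes, at least 110-fold, and the cholesterol importer Npc1l1 at least 50.3-fold. Apoa4, an apolipoprotein of chylomicrons, was less even within small intestine, at -1.11, 0.83 and 1.19, and at least 29.0-fold lower in salivary gland. The bile acid and nuclear receptor list was lower in 12 of 16 (Nr1i3 with no bound above 1-fold), with the bile acid receptor Nr1h4 at least 55.9-fold, and higher for Ppara (1.96) and Ppargc1a (1.39), although other probes of both pointed the other way. Enzymes of drug metabolism were lower in 17 of 18 tested genes, among them the carboxylesterases Ces2e and Ces2a, at least 111-fold and 69.7-fold, and Cyp4f14, at least 89.3-fold.

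Nutrient transporters were lower in salivary gland for 16 of 22 genes, of which Cybrd1 had no bound above 1-fold, and higher for 3. The amino acid transporter subunits Slc7a9 and Slc3a1, which form 1 complex, were at least 87.7-fold and 31.5-fold lower, the efflux pump Abcg2 at least 88.2-fold, and the zinc importer Slc39a4 differed by -6.96, with 1 of 4 salivary gland arrays well above background. Trpv6, a calcium channel of absorptive epithelia, ran the other way. Its levels were -1.58, -1.45, -1.63 and -1.45 in salivary gland, against -8.35, -8.08 and -7.93 in small intestine, at least 91.6-fold higher in salivary gland. The nucleoside transporter Slc28a1 was higher by 2.88, with levels of -1.10, -1.19, -0.43 and -0.47 in salivary gland and -3.64, -4.14 and -3.26 in small intestine.

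Paneth cell genes had the lowest median difference of the lists. Of 15 tested, 14 were lower in salivary gland, 13 of them at least 8-fold, with a median of -10.08, or -8.06 with genes at their bound. The alpha-defensin Defa29 had levels of -7.39, -7.05, -6.51 and -6.05 in salivary gland, against 4.35, 3.98 and 4.33 in small intestine, at least 439-fold lower. Other alpha-defensins had bounds from 269-fold (Defa40) to 521-fold (Defa42), and since no salivary gland array had them well above background, their order is not known. Alpha-defensin transcripts are nearly identical, so these probes do not count separate genes with certainty. Reg3b, a secreted antimicrobial lectin, was at least 358-fold lower. Lyz1, Paneth cell lysozyme, was measured in both organs, at -3.08, -3.18, -2.82 and -3.26 in salivary gland and 3.09, 2.83 and 3.26 in small intestine. Nupr1, a stress-response protein placed on the list, was higher in salivary gland by 4.03.

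Goblet cell genes were lower in salivary gland in 11 of 14 tested. Tff3, the trefoil peptide of intestinal mucus, was at least 294-fold lower, the lectin Zg16 at least 387-fold and Spink4 at least 248-fold. Muc2, the gel-forming mucin of the intestine, had levels of -7.25, -6.99, -6.13 and -5.63 in salivary gland and 2.67, 3.19 and 3.12 in small intestine, at least 187-fold lower. The exceptions Klk1 and Fer1l6 were higher in salivary gland by 6.38 and 3.11, and Klk1 also stands on the duct list. Mucins as a family were divided, with 4 higher and 4 lower of 10, against 28.6% of all genes higher and 41.6% lower. The sign of the mucin median of 0.11 turned with the scaling (lowest -0.78, highest 1.55). Enteroendocrine genes were lower in 14 of 18, among them neurotensin (Nts) at least 39.2-fold, secretin (Sct) at least 48.6-fold and somatostatin (Sst) at least 20.4-fold.

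**Figure D3:**
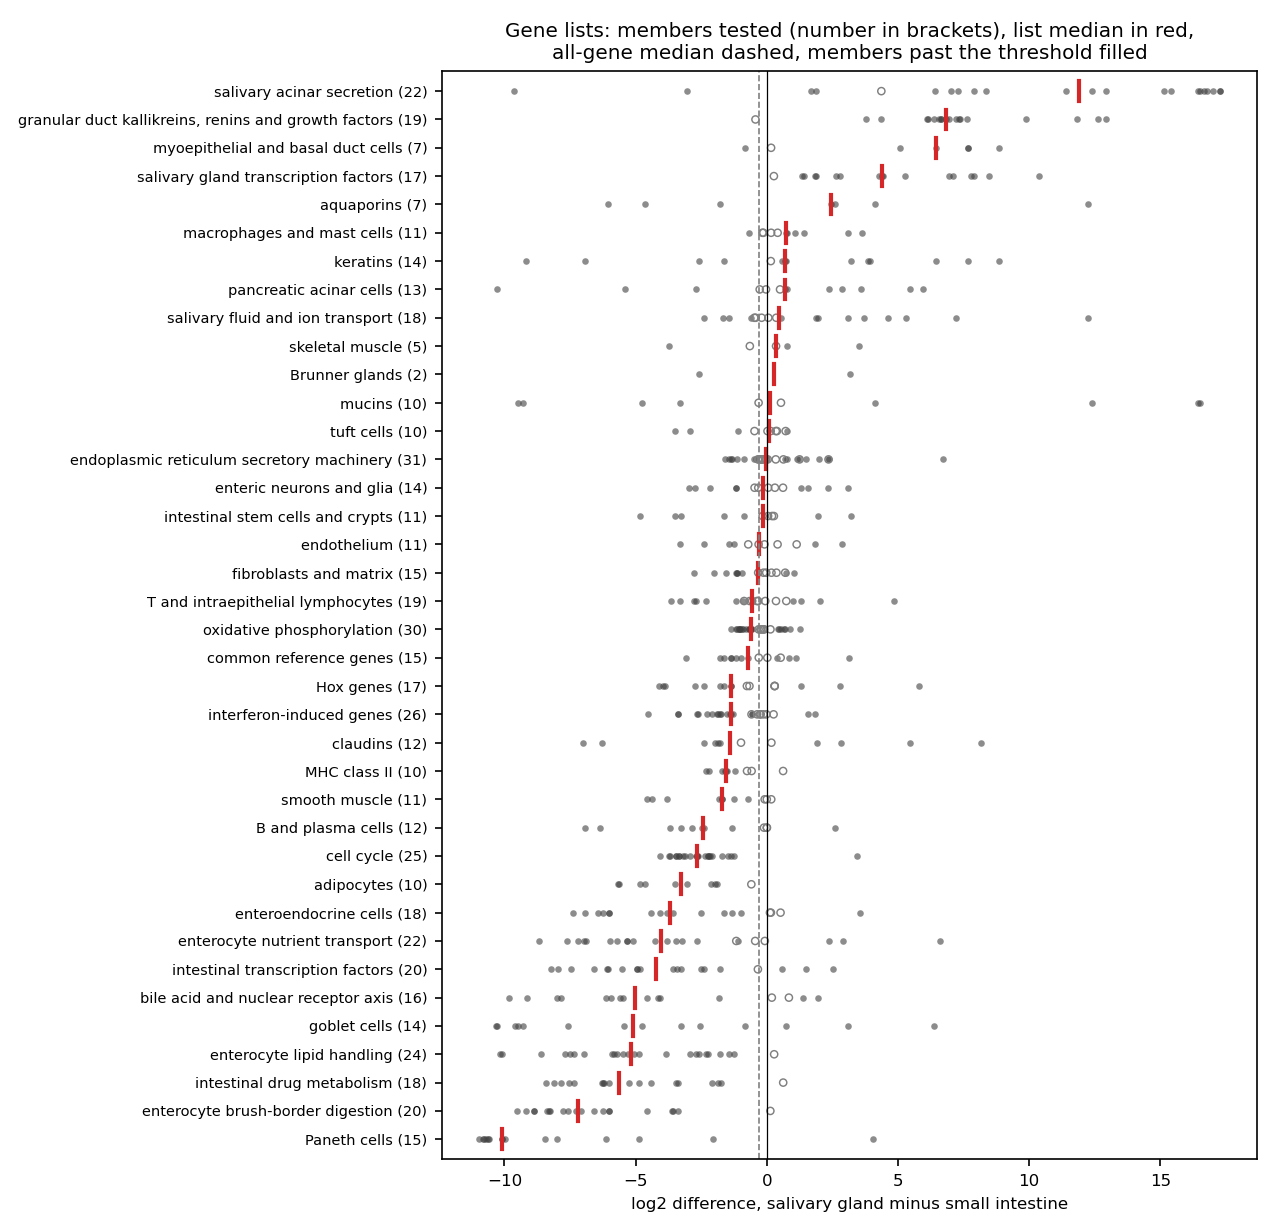
Log2 differences of the tested members of 38 gene lists (x axis: salivary gland minus small intestine), lists ordered by their median (red), with members past the threshold filled and the all-gene median of -0.31 dashed. Acinar secretion sits at the top with a median of 11.90 and Paneth cells at the bottom with -10.08.

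Intestinal transcription factors were lower in salivary gland in 16 of 20 tested genes, with a median of -4.21, or -2.79 with genes at their bound. No salivary gland array had 16 of the 20 well above background, and Prdm1 had no bound above 1-fold. Hnf4a, a nuclear receptor of enterocytes, had levels of -7.14, -6.97, -6.03 and -5.68 in salivary gland, against 1.77, 1.80 and 1.81 in small intestine, at least 81.4-fold lower. The homeobox factors Cdx1 and Cdx2, which specify intestinal identity, were at least 58.1-fold and 24.6-fold lower, Creb3l3 at least 41.5-fold and Isx at least 33.7-fold. Gata5 and Gata4 were higher in salivary gland by 2.52 and 1.49. Gata4 had levels of -3.21, -3.14, -2.52 and -2.29 in salivary gland and -3.79, -4.91 and -4.15 in small intestine. Hox genes were lower in 9 of 17 and higher in 3, against 41.6% of all genes lower and 28.6% higher. Of the 9, 4 had no bound above 1-fold. The sign of the Hox median turned with the scaling (lowest -2.24, highest 0.31). Hoxa4 was higher in salivary gland by 5.82, with 1 of 3 small intestine arrays well above background.

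Promoters were read for motifs because genes of these lists moved together. The 250 bases before each RefSeq start were searched on both strands for the TATA box written as TATAAA, the HNF4 motif written as CAAAGTCCA, and a short motif each for HNF1, GATA factors (letters AGATAAG), CDX factors (letters TTTATGG), ETS factors (letters AGGAAG), E-box proteins (letters CATATG) and SOX factors (letters AACAATG). The TATA box match stood in 7 of 12 Paneth promoters (58.3%), 7 of 17 lipid-handling promoters (41.2%), 6 of 18 brush-border promoters (33.3%), 6 of 24 acinar promoters (25%) and 1 of 17 promoters (5.88%) in each of the granular duct and nutrient transport lists, against 13% of all promoters and 7.79% of those of genes tested. It stood in 14.4% of promoters of genes at least 8-fold higher in salivary gland and 16.4% of those at least 8-fold lower. The Paneth matches were Defa20, Defa21, Defa22 and Defa23 on chromosome 8, Reg3b and Reg3g on chromosome 6, and Mmp7. Those of 1 family may not be independent. CAAAGTCCA stood in 7 of 371 promoters (1.89%) of genes at least 8-fold lower in salivary gland. It stood in 4 of 881 (0.454%) of those at least 8-fold higher, against 52 of 10784 (0.482%) over genes tested. The full HNF1 match stood in 2 promoters (0.539%) of the lower set and 0 (0%) of the higher set, against 0.0556% over genes tested. For GATA the shares were 3.77% in the lower and 2.27% in the higher set, against 1.85% over genes tested. In the same order they were 2.96%, 2.27% and 1.73% for CDX, and 34%, 28.4% and 28.1% for ETS. For the E-box they were 1.62%, 2.38% and 1.56%, and for SOX 1.62%, 1.7% and 1.82%. By list, the ETS letters stood in 22.2% (brush border) to 52.9% (nutrient transport) of promoters. A match describes letters only. The motifs were chosen after the values were seen. The last 100 bases before the start are shown for 2 acinar genes, Pip (chr6:41847449-41847548, plus strand) and Smgc (chr15:91838228-91838327, plus strand), a Paneth gene, Reg3b (chr6:78370785-78370884, plus strand), and a brush-border gene, Alpi (chr1:87101607-87101706, minus strand), from RefSeq on GRCm38.p6. Capitals mark TATAAA in the first 3 and CAAAGTCCA in Alpi. The Alpi window also holds TATAAA on the other strand, read as tttata and left in small letters.
Pip: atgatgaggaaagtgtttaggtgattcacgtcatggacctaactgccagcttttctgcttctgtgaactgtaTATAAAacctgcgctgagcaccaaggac
Smgc: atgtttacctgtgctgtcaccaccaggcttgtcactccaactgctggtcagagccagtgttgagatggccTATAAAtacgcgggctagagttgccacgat
Reg3b: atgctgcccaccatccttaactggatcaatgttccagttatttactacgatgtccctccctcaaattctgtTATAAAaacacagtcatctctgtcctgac
Alpi: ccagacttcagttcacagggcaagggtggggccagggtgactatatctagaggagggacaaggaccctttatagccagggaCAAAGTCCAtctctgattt
The TATAAA match begins 28 bases before the start in Pip, 30 in Smgc and 29 in Reg3b, while the CAAAGTCCA match begins 19 bases before the start of Alpi.

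The intestinal arrays were labelled duodenum, and regional genes, grouped after their values were seen, did not follow that label throughout. All 8 distal genes were well above background on all 3 small intestine arrays. Fabp6, the ileal bile acid-binding protein, which 1 of 4 salivary gland arrays had well above background, had levels of -4.74, -5.05, -6.23 and -4.28 in salivary gland, against 4.06, 3.96 and 4.15 in small intestine. The ileal bile acid carriers Slc51a, Slc51b and Slc10a2 were at least 207-fold, 62.4-fold and 6.33-fold lower in salivary gland, and Fgf15, the bile acid signal of the ileum, at least 15.9-fold. Of 12 proximal genes, 8 were well above background on all 3 small intestine arrays and 4 on none. Those 4 were Pdx1, a duodenal homeobox factor, Tmprss15, the duodenal enteropeptidase, Tff2, a trefoil peptide of Brunner's glands, and Trpv6. Fabp1 (-1.88, -1.55 and -1.18), Gip (-2.85, -2.88 and -2.02) and lactase, Lct (-0.24, -1.70 and 0.61), were measured on each small intestine array. On the small intestine arrays labelled Irgm1-/-, all 8 distal genes were again detected on every array, and 3 of the 12 proximal genes on none. The group is therefore called small intestine here.

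**Figure D4:**
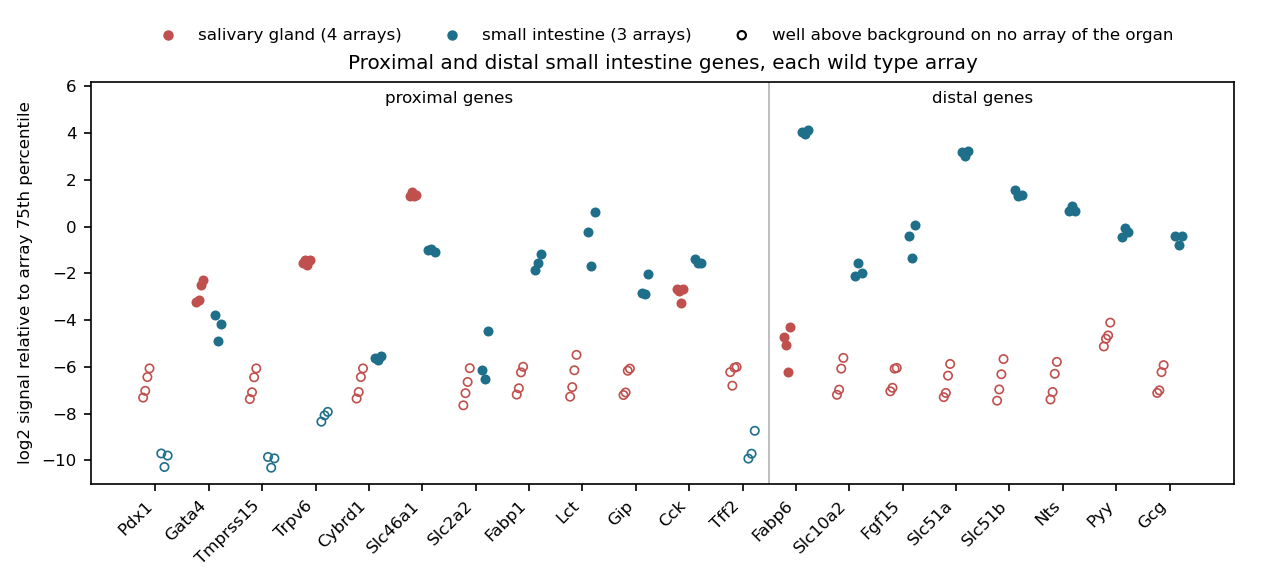
Levels of 12 proximal and 8 distal small intestine genes on each wild type array (y axis: log2 signal relative to the array's 75th percentile), salivary gland in red and small intestine in blue, with open circles where no array of the organ was well above background. All 8 distal genes are filled for small intestine, and Pdx1, Tmprss15, Trpv6 and Tff2 are open.

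Of 25 tested cell cycle genes, 24 were lower in salivary gland, Bub1 among them with no bound above 1-fold. Their median of -2.65, or -2.11 with genes at their bound, stayed between -2.65 and -1.51 under every scaling tried. Top2a, which untangles replicated DNA, had levels of -7.21, -6.94, -6.32 and -6.05 in salivary gland and -2.74, -2.45 and -2.51 in small intestine, at least 3.97-fold lower. Ccna2, cyclin A2, was measured in both organs at a difference of -3.48 ± 0.42 (SE). Tyms, thymidylate synthase, was the exception at 3.43, named after its value was seen. Of 11 tested stem cell and crypt genes, 5 were lower (Axin2 with no bound above 1-fold), 2 higher and 4 did not pass. Over all genes, 41.6% were lower and 28.6% higher. The sign of the stem cell list's median of -0.16 turned with the scaling (lowest -0.16, highest 0.15). The stem cell genes Olfm4, Ascl2 and Lgr5 were at least 8.92-fold, 3.73-fold and 2.21-fold lower, while Ephb2, a receptor of the crypt, was higher in salivary gland by 3.21 and Slc12a2, a chloride cotransporter also on the fluid secretion list, by 1.96.

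Genes of the secretory endoplasmic reticulum had no common direction: 9 of 31 tested were higher, 8 lower and 14 did not pass, with a median of -0.04 whose sign turned with the scaling (lowest -0.05, highest 0.22). Derl3, a component of protein disposal in highly secretory cells, had levels of 2.05, 2.02, 1.98 and 1.86 in salivary gland, against -4.72, -4.53 and -4.94 in small intestine, a difference of 6.71 ± 0.15 (SE). The translocon subunit Sec61b was higher by 2.35 and Ssr4 by 1.98. Respiratory chain genes were lower in 16 of 30 and higher in 7, with differences between -1.38 and 1.26 and a median of -0.59. For comparison with both lists, 28.6% of all genes were higher and 41.6% lower.

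Structural families changed members between the organs. Among keratins, Krt5 and Krt14 of basal cells were higher in salivary gland, while Krt20 of differentiated enterocytes was at least 150-fold lower, and Krt19 differed by -6.93, with 2 of 4 salivary gland arrays well above background. Among claudins, which set the permeability of tight junctions, Cldn10 and Cldn14 were higher by 8.16 and 5.44. Cldn15 and Cldn2, pore-forming claudins of the intestine, were at least 38.3-fold and 21.9-fold lower. Among aquaporins, Aqp5 and Aqp2 were higher, Aqp2 by 4.13, and Aqp1 and Aqp11 were at least 18.1-fold and 7.56-fold lower.

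Markers of other cell types differed between the organs to varying degrees, against 41.6% of all genes lower and 28.6% higher, and their part in the differences above was not tested. Adipocyte genes were lower in salivary gland in 9 of 10 tested, with a list median level of -5.37 to -4.29 on salivary gland arrays and -2.22 to -0.57 on small intestine arrays. Adiponectin (Adipoq) had levels of -7.00, -6.76, -4.33 and -5.44 in salivary gland and -1.88, 0.56 and 0.56 in small intestine, and adipsin (Cfd) -3.44, -3.75, -0.60 and -4.88 against 0.37, 2.13 and 2.44. On the arrays labelled Irgm1-/-, 3 adipocyte genes were lower in place of 9. Smooth muscle genes were lower in 8 of 11, with Actg2 at -4.57 and desmin (Des) at least 5.21-fold. B and plasma cell genes were lower in 8 of 12, with list medians of -6.28 to -3.35 on salivary gland arrays, highest in mouse 3, and -2.70 to -2.07 on small intestine arrays. The antibody joining chain Jchain, well above background on 2 of 4 salivary gland arrays, was -4.83, -6.92, -2.96 and -4.89 in salivary gland and 1.36, 1.67 and 1.37 in small intestine.

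Among T and intraepithelial lymphocyte genes, 7 of 19 were lower, 4 higher and 8 did not pass, and the sign of the median turned with the scaling (lowest -1.85, highest 0.85). Of these calls, Cd8a and Cd5 were lower with no bound above 1-fold, and Cd2 was higher with no salivary gland array well above background. Gzma, granzyme A, differed by -3.66, with 3 of 4 salivary gland arrays well above background, and Cd8b1 was higher by 4.83. Macrophage and mast cell genes were higher in 6 of 11, of which no salivary gland array had Prg2 well above background, with Adgre1 at 3.09 and Cd68 at 3.62, although another Adgre1 probe gave -0.14. Cd68 was uneven in salivary gland, at 0.89, 2.27, -0.78 and 2.92. Fibroblast and matrix genes were lower in 7 of 15 and higher in 2, endothelial genes lower in 4 of 11 and higher in 2, enteric neuron and glia genes lower in 5 of 14 and higher in 4, tuft cell genes lower in 3 of 10 and higher in 1, and skeletal muscle genes lower in 1 of 5 and higher in 2. The shares lower in these lists lay close to or below that of all genes, and Cdh5 and Siglecf were lower with no bound above 1-fold. Of 8 Brunner gland genes only 2 were tested, with Gkn3 higher by 3.16 and Lyz2 at -2.58. Pancreatic enzymes were mixed: Ctrb1, chymotrypsinogen, was higher by 5.47 and Prss1 at least 21.7-fold, while the lipase Pnliprp2 was at least 10.9-fold lower. Of the 28 listed pancreatic genes, 15 were not tested, and the sign of the list's median turned with the scaling.

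Interferon-induced genes were lower in 17 of 26 tested, although Oas2 and Mx1 had no bound above 1-fold, and higher in 2, of which no salivary gland array had Ifi44 well above background. The list median was -1.37, or -0.74 with genes at their bound, and 0.34 on the arrays labelled Irgm1-/-. Oasl1, an oligoadenylate synthetase-like protein that 1 of 4 salivary gland arrays had well above background, had levels of -5.16, -6.59, -5.40 and -5.86 in salivary gland, against -1.13, -1.05 and -1.43 in small intestine. Oas1a differed by -3.40 ± 0.16 (SE), with 3 of 4 salivary gland arrays well above background. On the arrays labelled Irgm1-/-, 4 of these genes were lower and 6 higher. MHC class II genes were lower in 7 of 10 (H2-Eb2 with no bound above 1-fold), and leaving out the 2 dimmest salivary gland arrays gave 6. H2-DMb1, which loads peptides onto class II molecules, differed by -2.21.

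Genes often used for scaling also differed between the organs: 8 of 15 were lower in salivary gland, 4 higher and 3 did not pass. Of all genes tested, 41.6% were lower and 28.6% higher. Actb differed by -1.62, B2m by -3.07 and Polr2a by 3.14. Ppia was higher by 1.11 but lower under quantile normalization, at -0.35. Gapdh differed by -0.31 ± 0.14 (SE) and did not pass (adjusted p = 0.0846), and 2 other Gapdh probes gave 0.73 and 0.31.

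The organ contrast was repeated on the 7 arrays labelled Irgm1-/-, which come from other mice but share slides and scan days with the wild type arrays. On them 4821 genes (29.1%) were higher in salivary gland and 7174 (43.4%) lower. Of the 4738 genes higher in wild type, 4352 (91.9%) were called in the same direction, and of the 6887 lower, 6105 (88.6%) were. Among genes at least 8-fold apart in wild type, 1537 of 1538 higher genes and 553 of 560 lower genes were called in the same direction. Among genes measured in both organs, Egf differed by 7.63 in wild type and 8.55 on the arrays labelled Irgm1-/-, Lyz1 by -6.15 and -5.38, and Bhlha15 by 4.37 and 4.23. A test of the difference between the genotypes passed for 31 genes (0.187%). The salivary gland mice labelled Irgm1-/- were 9 weeks old and the wild type ones 6 or 7. Genotype and age therefore cannot be told apart in this test. The Irgm1 probe itself did not fall on the arrays labelled Irgm1-/-, at 0.60, 0.12, -0.60 and -0.01 in salivary gland, against -2.87, -2.92, -2.70 and -2.76 in wild type salivary gland. Where this probe lies relative to the deletion is not known here, so it does not check the labels.

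**Figure D5:**
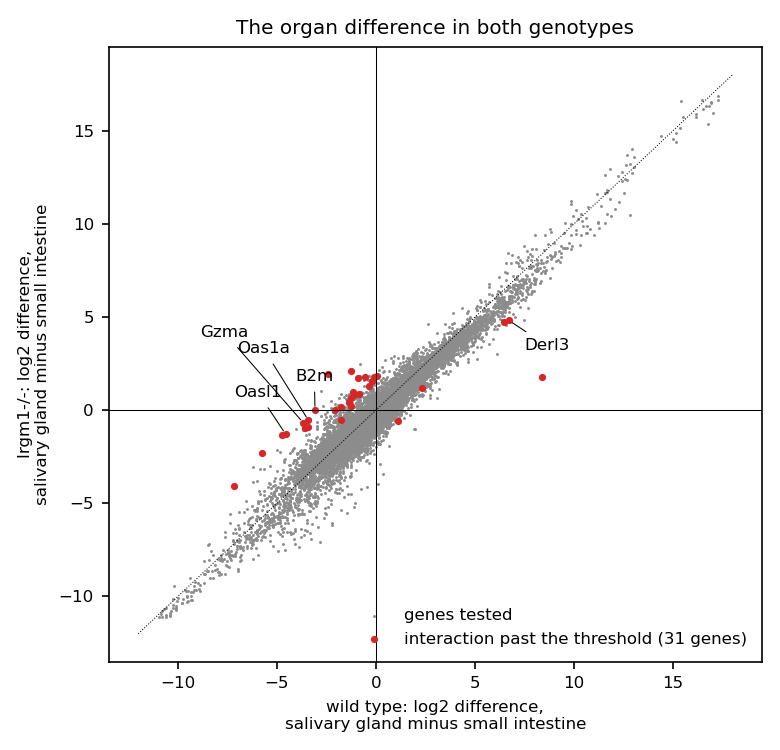
Organ differences of all 16539 genes tested (salivary gland minus small intestine, log2), wild type on the x axis and arrays labelled Irgm1-/- on the y axis, with the 31 genes past the threshold for a difference between genotypes in red. Most genes lie along the dotted line of equal differences, and B2m, Oas1a, Oasl1 and Gzma lie above it.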

How the data were processed

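RNA of 1 mouse per array (5 ug labelled with Cy5, per the labels) was hybridised to single-colour Agilent arrays. Per the file headers, intensity values come from Agilent Feature Extraction 11.5.1.1 with spatial detrending switched on. The authors' deposited series table, whose median intensity is 47.6 on each wild type salivary gland array and 299 on each wild type small intestine array, served as an alternative. From the intensity values, outlier-flagged spots (0.41%) were removed, log2 was taken, spots were averaged per probe, and each array's 75th percentile over the 9170 probes well above background on all 7 arrays was subtracted. Probes well above background on every array of an organ were tested, with the brightest probe standing for a gene. Of 39429 probes, 27508 were named by RefSeq accession. limma 3.58.1 in R 4.3.3 gave Benjamini-Hochberg adjusted p-values, with 0.05 as the threshold. The fit was tested on simulated data. Nothing in the labels says whether same-numbered mice are related, and same-numbered arrays did not deviate together (correlations -0.01, -0.08 and 0.03).

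The arrays, lists and naming rule were chosen with earlier results of these data known. Named genes are the 12 highest and 12 lowest differences among genes with a RefSeq match, up to 4 members of each list in its own direction and 2 against it, and a fixed set; others are said to be chosen after their values were seen or are given as counts and exceptions of a list. Of 707 list members, 692 were on the array. P-values measure the spread between mice within an organ, with organ, slide and scan day not separable. Alternatives covered scaling, background, filters, probes, samples, slide and replicate. Some list members are counted but not reported here by name.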

Additional observations from a re-analysis of the deposited data

Results flagged for a closer look

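Among the named genes tested for a stray array in wild type salivary gland, 5 (4.67%) had 1 array far from the other 3, and chance flags about 1 in 20 groups, so this is about the number that chance gives. Cox4i1 stood at 4.70 in mouse 2, with the nearest array at 4.42. H2-Oa stood at -4.26 in mouse 3, with the nearest at -4.99. Krt5 stood at 0.46 in mouse 1, with the nearest at 0.82. Lpo stood at 4.0 in mouse 4, with the nearest at 4.38. Sdha stood at -1.12 in mouse 4, with the nearest at -0.78. The organ differences of H2-Oa, Cox4i1 and Sdha were -1.58, 1.26 and -1.18, and H2-Oa was well above background on 1 of 4 salivary gland arrays.

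For 6 named genes the organ difference itself differed between genotypes in limma (labelled Irgm1-/- minus wild type). The salivary gland mice labelled Irgm1-/- were older than the wild type ones, so genotype and age cannot be told apart here. Oasl1, an interferon-induced gene, had an interaction of 3.23, with organ differences of -1.30 on arrays labelled Irgm1-/- and -4.55 in wild type. Oas1a had 2.84, with -0.55 and -3.40. B2m, the light chain of MHC class I, had 3.04, with -0.01 and -3.07. Gzma had 2.96, with -0.68 and -3.66. Derl3 had -1.90, with 4.82 and 6.71. Ret, a receptor of enteric neurons, had -1.15, with 1.22 and 2.35, with 2 of 4 wild type salivary gland arrays well above background.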

How the results depend on the processing

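The count of genes lower in salivary gland was 6887, and it was 4076 with normexp background correction and 2612 over genes detected on all 7 arrays. The count higher was 4738, and it was 17624 with no filter. Leaving out each array in turn gave 4497 to 4788 genes higher and 6143 to 7232 lower. The background correction, the floor and the filters moved the split of calls: 40.8% were higher, against 62.9% with normexp, 56.4% with a floor at the detection limit, 56.6% over genes detected on all 7 arrays and 72.4% with no filter, while it was 36.9% to 49.2% under the other scalings and in the authors' deposited table. The median of all genes shifted by 0.26 with the percentile over all probes, 0.64 with normexp and 0.50 with the floor. Of the calls, 73.7% held with normexp and 82.2% with the floor. With slide as a random block (correlation 0.62), 4157 genes were higher and 5725 lower. Replicate numbers do not pair these samples, and a replicate block gave 4283 higher and 6501 lower. Signs turned for Axin2 (0.03 with normexp, 0.44 with the floor), Pdgfra (0.04 with normexp), Siglecf (0.45 with normexp, 1.11 with the floor), Ppara (-1.0 as the mean of all probes) and Ppia (-0.35 with quantile normalization). On the arrays labelled Irgm1-/-, Gapdh was 0.08 and Irgm1 0.73. Beside a dim salivary gland, differences of genes at low signal are bounds only. The cause of these shifts was not tested, except that fewer genes were tested over all 7 arrays and more with no filter.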
